A study of Mus musculus with 9 samples.

Results

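The G2/M and mitosis genes described here are 47 genes whose products take a cell from the end of DNA replication through chromosome segregation to cytokinesis. They were listed by symbol, with earlier results of these data known, and all 47 were found among the 37990 genes with counts and were among the 14465 genes tested. RNA sequencing was done on 9 libraries of E14 mouse embryonic stem cells, a line grown here on gelatin in medium with 10% serum and 1000 U/ml LIF, the cytokine that holds these cells in self-renewal. In the 3 Fam60a knockdown libraries the cells stably carried a lentiviral short hairpin against Fam60a, an accessory subunit of the Sin3a-Hdac corepressor complex. In the 3 Sin3a knockdown libraries the hairpin was directed against Sin3a, the scaffold of that complex, and in the 3 control libraries it was a non-targeting one made in parallel. All 9 cultures were therefore transduced, selected with 2 µg/ml puromycin and passaged before harvest, so none of them is an untreated line, and how many hairpins were used per target was not given in the sources used here. The comparisons ask which of these transcripts differ when either part of the complex is lowered.

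Entry into mitosis is driven by the kinase Cdk1 bound to cyclin B, which Cdc25 phosphatases switch on and polo-like and Aurora kinases amplify. The spindle checkpoint holds the anaphase-promoting complex, a ubiquitin ligase, inactive until every kinetochore is attached, after which cyclin B and securin are destroyed and separase opens cohesin. The transcripts of these genes rise together in G2, and much of that control runs through the DREAM complex and its B-Myb and Foxm1 forms, which bind a short promoter element called CHR (cell cycle genes homology region), often near CCAAT boxes bound by NF-Y. Mouse embryonic stem cells cycle fast, with a short G1 phase. In bulk RNA, fewer cells in G2 or mitosis and less RNA per such cell cannot be told apart.

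The promoter windows of the members carried those letters more often than promoters at large. RefSeq windows on GRCm38.p6, each running from 250 bases before to 50 bases after the annotated start site, were matched by symbol for 38 of the 47 members and 41 start sites. No window was matched for Ccna2, Cdc25c, Foxm1, Aurkb, Incenp, Spc24, Tpx2, Kif20a and Smc4. The CHR was searched as TTTGAA or TTCGAA and the NF-Y box as CCAAT, each on both strands, and in 1 member window a match of one overlapped a match of the other. CHR letters were present in 32 of the 41 member windows (78.0%), against 19.2% of all 32851 windows. CCAAT was present in 31 member windows (75.6%), against 37.4% of all windows, and both were present in 29 (70.7%), against 7.5%. Counted by gene, 26 of the 38 members (68.4%) had CHR letters within 50 bases of a start site, against 4.3% of the 10826 tested genes with a window. These are matches of letters, not shown sites of binding.

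The windows of 6 genes are printed for the members that the results turn on, with the CHR and CCAAT letters (either strand) in capitals and all else in lower case. Cdk1 and Plk1 stand for the core engine, Cdc25b, Cenpf and Mki67 for members called in at least one of the fits below, and Pttg1 for a member with neither set of letters in its window.
Cdk1 (chr10:69352863-69353162, minus strand): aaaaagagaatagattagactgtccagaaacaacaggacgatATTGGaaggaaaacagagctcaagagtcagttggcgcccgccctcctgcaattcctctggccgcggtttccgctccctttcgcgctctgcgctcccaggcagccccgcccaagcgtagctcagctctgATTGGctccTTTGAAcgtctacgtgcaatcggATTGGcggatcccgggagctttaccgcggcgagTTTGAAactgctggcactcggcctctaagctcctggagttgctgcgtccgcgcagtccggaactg
Plk1 (chr7:122159185-122159484, plus strand): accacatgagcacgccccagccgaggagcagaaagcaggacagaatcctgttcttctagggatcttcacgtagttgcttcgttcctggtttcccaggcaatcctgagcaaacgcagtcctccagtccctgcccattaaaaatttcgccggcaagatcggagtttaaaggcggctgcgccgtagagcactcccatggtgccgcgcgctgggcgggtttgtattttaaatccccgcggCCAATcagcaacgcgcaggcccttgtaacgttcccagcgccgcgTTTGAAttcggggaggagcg
Cdc25b (chr2:131186698-131186997, plus strand): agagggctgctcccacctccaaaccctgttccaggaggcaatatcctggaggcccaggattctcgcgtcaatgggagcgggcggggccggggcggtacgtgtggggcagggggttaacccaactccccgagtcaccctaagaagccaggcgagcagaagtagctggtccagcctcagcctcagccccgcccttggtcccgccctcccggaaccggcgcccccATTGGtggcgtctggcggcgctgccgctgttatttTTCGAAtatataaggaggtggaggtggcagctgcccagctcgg
Cenpf (chr1:189688037-189688336, minus strand): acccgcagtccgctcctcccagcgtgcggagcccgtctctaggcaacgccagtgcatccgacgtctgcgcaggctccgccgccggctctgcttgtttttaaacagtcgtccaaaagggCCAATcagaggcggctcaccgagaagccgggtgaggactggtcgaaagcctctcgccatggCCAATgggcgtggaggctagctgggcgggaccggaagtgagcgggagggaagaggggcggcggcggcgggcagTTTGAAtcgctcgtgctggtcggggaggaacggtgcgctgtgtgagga
Mki67 (chr7:135716330-135716629, minus strand): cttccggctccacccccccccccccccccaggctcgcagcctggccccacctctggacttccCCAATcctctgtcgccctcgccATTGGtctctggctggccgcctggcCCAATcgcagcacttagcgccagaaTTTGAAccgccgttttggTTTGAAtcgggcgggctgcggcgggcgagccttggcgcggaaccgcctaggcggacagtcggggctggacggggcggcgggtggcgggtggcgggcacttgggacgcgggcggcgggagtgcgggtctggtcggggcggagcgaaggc
Pttg1 (chr11:43425932-43426231, minus strand): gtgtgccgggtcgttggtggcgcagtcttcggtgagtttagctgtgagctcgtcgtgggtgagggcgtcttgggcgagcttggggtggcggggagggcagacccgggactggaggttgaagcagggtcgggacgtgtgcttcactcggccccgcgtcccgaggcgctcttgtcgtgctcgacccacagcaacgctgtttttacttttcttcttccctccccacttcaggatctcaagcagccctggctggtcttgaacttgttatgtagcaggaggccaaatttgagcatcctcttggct
Taking the first transcribed base as position 1, the CHR of Cdc25b began at position 8, that of Cenpf at position 3 and that of Plk1 at position 31. Cdk1 had CHR letters at positions -71 and -15, and Mki67 at -116 and -98. Pttg1, Birc5, Plk4, Mad2l1, Nuf2, Nusap1 and Ncaph had neither element in their windows, and Ccnb1 and Cenpe had CCAAT without CHR letters. The Pttg1 window lay wholly inside the gene as GENCODE M21 annotates it, so the bases before that gene's start were not searched.

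**Figure D1:**
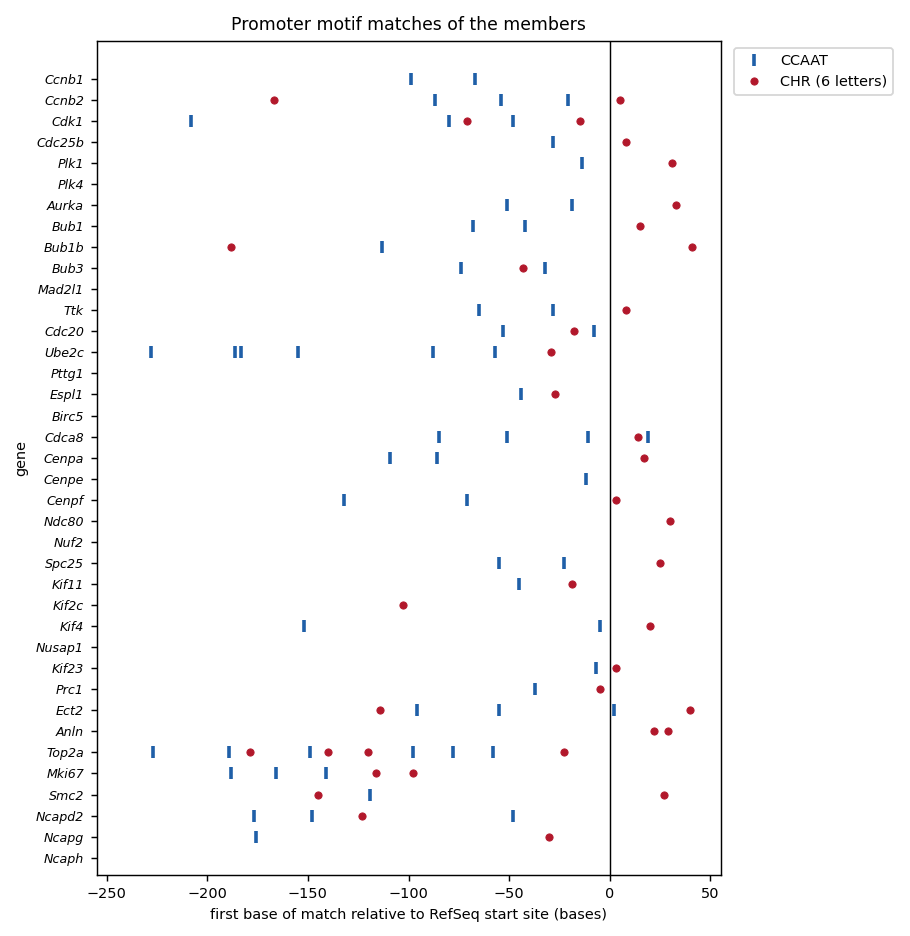
Position of CHR letters (red points) and CCAAT letters (blue bars) relative to the RefSeq start site for the first window of each of the 38 members with one, with distance in bases on the x axis and one gene per row. The CHR letters gather around the start site, while most CCAAT letters lie before it. Over all 41 windows, 29 of 43 CHR matches began within 50 bases of the start site. That count takes in the second windows of Bub3, Prc1 and Ect2, which are not drawn. They overlap the first windows, so the same letters are counted again.

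The libraries held 2607872 to 7674887 reads assigned to genes. In the Fam60a knockdown libraries Fam60a itself had 5.73 ± 0.753 CPM, against 13.5 ± 0.472 CPM in control libraries (SD, n = 3 each; adjusted p = 0.028 by edgeR's quasi-likelihood test), where CPM is the read count relative to the scaled library size. Sin3a had 126 ± 13.4 CPM in Sin3a knockdown libraries, against 287 ± 21.9 CPM in control libraries (adjusted p = 0.00149). Sin3a was also lower in the Fam60a knockdown, with 227, 216 and 207 CPM against 311, 281 and 268 CPM in control libraries. Its log2 fold change there was -0.40, which was not called (adjusted p = 0.0964 by edgeR). Fam60a had 15.6 ± 2.66 CPM in Sin3a knockdown libraries, which overlapped the controls. All 12 markers of embryonic stem cells were detected. In Fam60a knockdown over control 10 of the 12 had a log2 fold change below 0 (median -0.114), with 0 called. Over all tested genes 7727 of 14465 were below 0 (median -0.021) and 2.92% were called. Of the 12 markers, 4 (33.3%) were lower there in every library without overlap, against 18.2% of all tested genes. In Sin3a knockdown over control 6 were below 0 and 1 was called lower (8.33%, adjusted p = 0.0335 by edgeR). Of all 14465 genes, 909 were called lower there, and 10.2% were called in either direction. Without Sin3a knockdown replicate 3, 2 (16.7%) were called lower in the Fam60a knockdown, against 7.77% of all genes called lower. The 10 primitive endoderm markers, all detected, summed to 2267 to 3566 CPM in Fam60a knockdown, 2660 to 4958 CPM in Sin3a knockdown and 1066 to 2807 CPM in control libraries, so that the third control library overlapped both knockdowns. Their median log2 fold change was 0.971 in Fam60a knockdown over control, with 10 of 10 above 0. By edgeR 3 had an unadjusted p under 0.05 there. In Sin3a knockdown over control the median was 1.159, with 9 above 0 and 7 at that p. Over all genes 46.6% and 49% were above 0 in the 2 comparisons, and 15.7% and 25.9% had that p. Gata6 had 195, 171 and 211 CPM in Fam60a knockdown, 208, 195 and 221 CPM in Sin3a knockdown and 57.0, 61.0 and 137 CPM in control libraries. It was higher in every knockdown library than in any control and was called in the Sin3a knockdown (adjusted p = 0.029 by edgeR), and without Sin3a knockdown replicate 3 it was called in both knockdowns (adjusted p = 0.0422 in Fam60a and 0.0368 in Sin3a knockdown over control). Of 10 fibroblast markers 5 passed the filter, summing to 60.7 to 76.9 CPM in Fam60a knockdown, 41.2 to 93.0 CPM in Sin3a knockdown and 60.8 to 95.4 CPM in control libraries, while the defining matrix gene Dcn had no read in most libraries. Among those 5, Twist1 was called higher (log2 fold change 1.09, adjusted p = 0.0341 by edgeR) and Thy1 lower (-1.80, adjusted p = 0.00816) in Sin3a knockdown over control, and Thy1 was lower in Sin3a than in Fam60a knockdown (-1.82, adjusted p = 0.0183). The part of these other cells in the results below was not tested.

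Replicate 3 of the Sin3a knockdown stood apart and has to be known before any value below is read. It is the library with 2607872 reads, it held 90 mitochondrial reads against 6268 to 7118 in the other 8 libraries, and genes poor in G and C were low in it. Of the 47 members, 9 were more than 2-fold below their control mean in it, against 0 in each other library: Ncapg, Mad2l1, Ect2, Smc4, Bub1, Nusap1, Plk4, Ttk and Ccnb1, whose transcripts have 34.8 to 44.2% GC. The lowest was Ccnb1, with 55 reads. Across the 47 members, the deviation from the control mean followed transcript GC content with a Spearman rho of 0.643 in replicate 3, and of -0.457 and -0.383 in replicates 1 and 2. In the Fam60a knockdown libraries the rho ranged from -0.053 to 0.309. The points are genes of one library and are not independent. In replicate 3 the 24 members of lower GC content had a median deviation of -0.551 on the log2 scale and the 23 of higher GC content one of -0.061. Log2 fold changes in Sin3a knockdown over control are therefore given with all libraries and without that one. The 3 groups share one estimate of the spread, so that library also enters the p-values of the Fam60a knockdown over control. In that comparison 423 genes were called with all libraries and 2495 without Sin3a knockdown replicate 3.

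**Figure D2:**
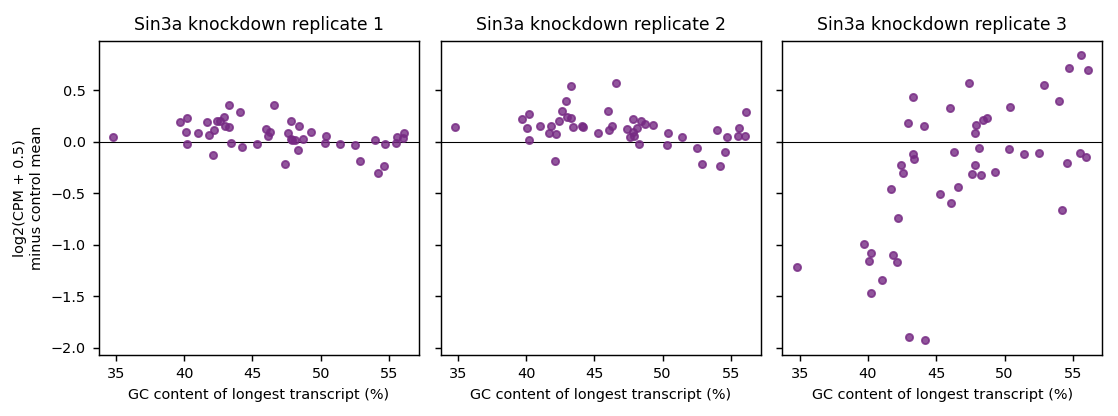
Deviation of each of the 47 members from its control mean, as log2(CPM + 0.5), against the GC content of its longest annotated transcript in percent, for the Sin3a knockdown replicates from left to right. Points slope upwards in replicate 3, where low-GC members lie as far as -1.93 from the control mean, and slope slightly downwards in replicates 1 and 2.

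Mitotic transcripts were abundant in the control cells. Per kilobase of merged exon, the members had a median of 29.9 CPM per kb, against 10.9 over all tested genes with an annotated length. The order ran from Cdc20 (79.9 CPM per kb), Ccnb2 (79.6), Plk1 (70.5), Bub1b (68.7) and Tpx2 (57.5) down to Mad2l1 (11.9). Replicates lay close together in the Fam60a knockdown and control groups, and further apart in the Sin3a knockdown. The median SD over the members was 0.073 on the log2 scale in Fam60a knockdown, 0.248 in Sin3a knockdown and 0.076 in control libraries, against 0.154, 0.42 and 0.142 over all tested genes in the same groups. Summed over the 47 members, the level was 8471, 8205 and 8314 CPM in Fam60a knockdown libraries and 8757, 9287 and 7613 CPM in Sin3a knockdown libraries, against 8502, 8233 and 8179 CPM in control libraries. The Fam60a knockdown and control sums overlapped, and the Sin3a knockdown libraries held both the highest sum (replicate 2) and the lowest (replicate 3).

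**Figure D3:**
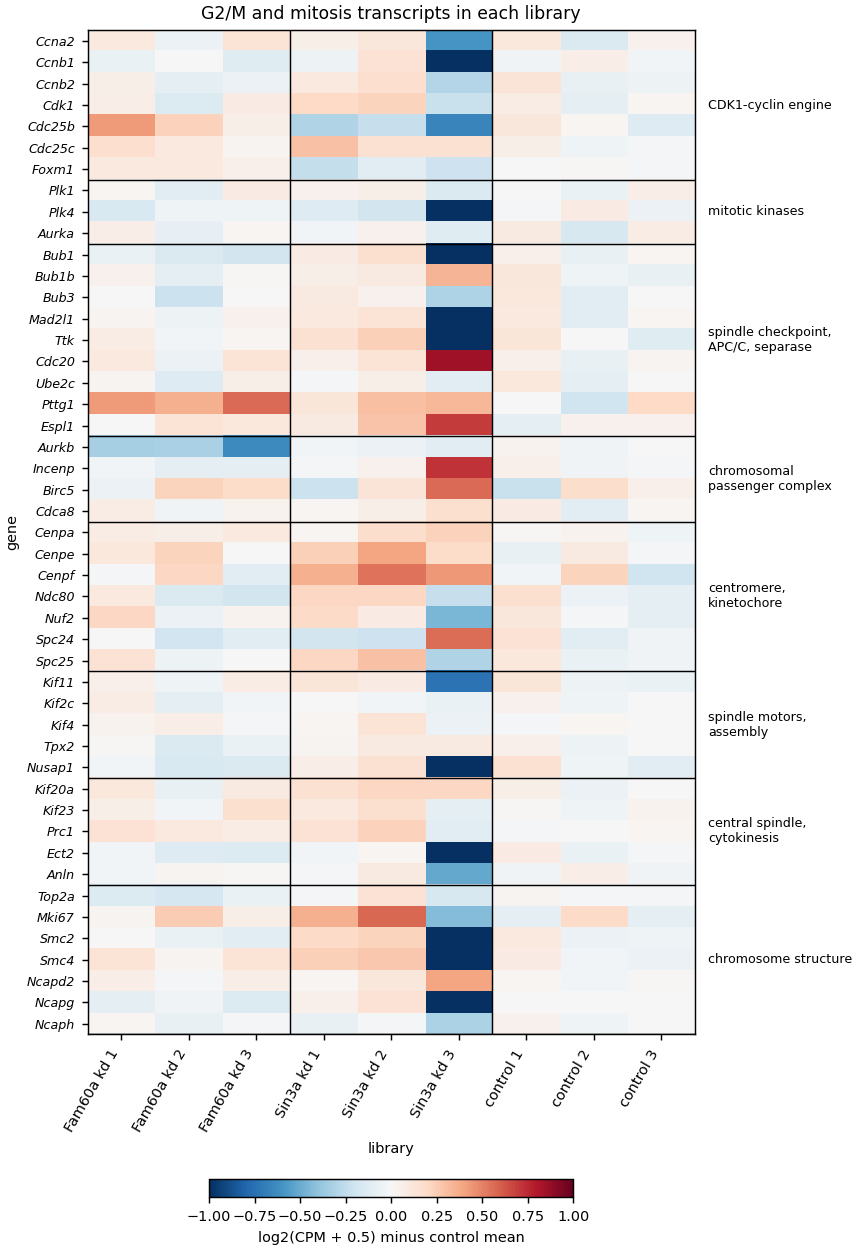
Each of the 47 members (rows, by role) in each of the 9 libraries (columns: Fam60a knockdown, Sin3a knockdown, control), as log2(CPM + 0.5) minus the control mean, with values beyond ±1 drawn in the end colours. Most cells are pale, the third Sin3a knockdown library holds most of the dark ones, and Aurkb and Pttg1 stand out across the Fam60a knockdown libraries.

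With all 9 libraries in the fit, 0 of the 47 members changed in the Fam60a knockdown, in the Sin3a knockdown or between the knockdowns at an adjusted p under 0.05 (edgeR's quasi-likelihood test, adjusted over all 14465 genes). Over all tested genes, 2.92%, 10.2% and 3.06% were called in these comparisons, in that order. At an unadjusted p under 0.05 there were 2 members (1 higher, 1 lower) against 15.7% of all genes for the Fam60a knockdown, 4 (3 higher, 1 lower) against 25.9% for the Sin3a knockdown, and 4 (2 higher, 2 lower) against 18.1% between the knockdowns. Those are 4.26%, 8.51% and 8.51% of the members. The median log2 fold change of the members was 0.008 for Fam60a knockdown over control, -0.002 for Sin3a knockdown over control and -0.007 for Sin3a over Fam60a knockdown, with medians of -0.021, -0.012 and -0.014 over all tested genes. The 95% intervals bound what could have been missed: they lay within 1.5-fold either way for 33, 29 and 28 of the 47 members, and within 2-fold for 47, 44 and 45.

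Some members separated the groups without overlap. In Fam60a knockdown against control, Cenpa, Foxm1, Prc1 and Pttg1 were higher in every library and Aurkb, Ncapg and Top2a lower, 4 and 3 of 47 (8.51% and 6.38%), against 16.2% and 18.2% of all tested genes. In Sin3a knockdown against control, Cdc25c, Cenpe, Cenpf, Espl1, Kif20a and Ncapd2 were higher and Cdc25b, Foxm1 and Plk4 lower in every library, 6 and 3 of 47 (12.8% and 6.38%), against 14.7% and 18.5%. In Sin3a against Fam60a knockdown, Aurkb, Bub1b, Cenpf, Incenp, Kif20a and Tpx2 were higher and Cdc25b, Foxm1 and Pttg1 lower, 6 and 3 of 47 (12.8% and 6.38%), against 11.6% and 13.9%. The share of members higher in the Sin3a knockdown was near that of all genes in both comparisons. The comparisons share libraries, so a gene that appears in more than one is not counted as independent evidence.

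When replicate 3 of the Sin3a knockdown was left out, 14735 genes were tested, the intervals narrowed and a few members were called. In the Fam60a knockdown 1 member rose and 1 fell, against 9.16% and 7.77% of all genes. In the Sin3a knockdown 6 members rose and 0 fell, against 11.0% and 13.5%. In Sin3a over Fam60a knockdown 3 members were higher and 2 lower, against 6.21% and 8.49%. In that fit 38 of the 47 members had a log2 fold change above 0 in Sin3a knockdown over control, with a median of 0.094 and the interval within 1.5-fold for 45 of 47. The median over all genes there was -0.008, with 49% above 0. The 2 libraries differed in this, with values here scaled over all 9 libraries. Sin3a knockdown replicate 1 had 25 members above and 22 below control replicate 1 (median log2 difference 0.003). Replicate 2 had 41 above and 6 below control replicate 2 (median 0.16). Against the mean of the controls the members' median deviation was 0.055 in replicate 1 and 0.137 in replicate 2. It was 0.12 and 0.156 for the 24 members of lower GC content, and 0.018 and 0.061 for the 23 of higher GC content. The members' median GC content was 46.6%, against 50.2% over all tested genes with a known GC content. The part of GC content in the members' shift was not tested. Without replicate 3 the Sin3a knockdown is represented by 2 libraries, whose spread is assumed to equal that of the other groups. The same 8 libraries with a correction for GC content, an alternative chosen after the data were seen, called 2, 7 and 3 members in the 3 comparisons, against 16.6%, 27.3% and 16.9% of all genes, and, of the 6 members that rose in the Sin3a knockdown, called Mki67 alone. DESeq2 on all 9 libraries called 1, 2 and 4 members, against 8.16%, 17.3% and 9.21% of all genes, and limma-voom with sample quality weights 3, 6 and 6, against 20.3%, 34.5% and 26.8%. With the replicate number as a block, 0, 1 and 1 members were called, against 6.13%, 15.0% and 4.65%. The block together with leaving out Sin3a knockdown replicate 3 called 4 members in the Fam60a knockdown (3 higher, 1 lower), 16 in the Sin3a knockdown (13 higher, 3 lower) and 12 between the knockdowns (10 higher, 2 lower), against 39.6%, 47.3% and 36.1% of all genes.

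**Figure D4:**
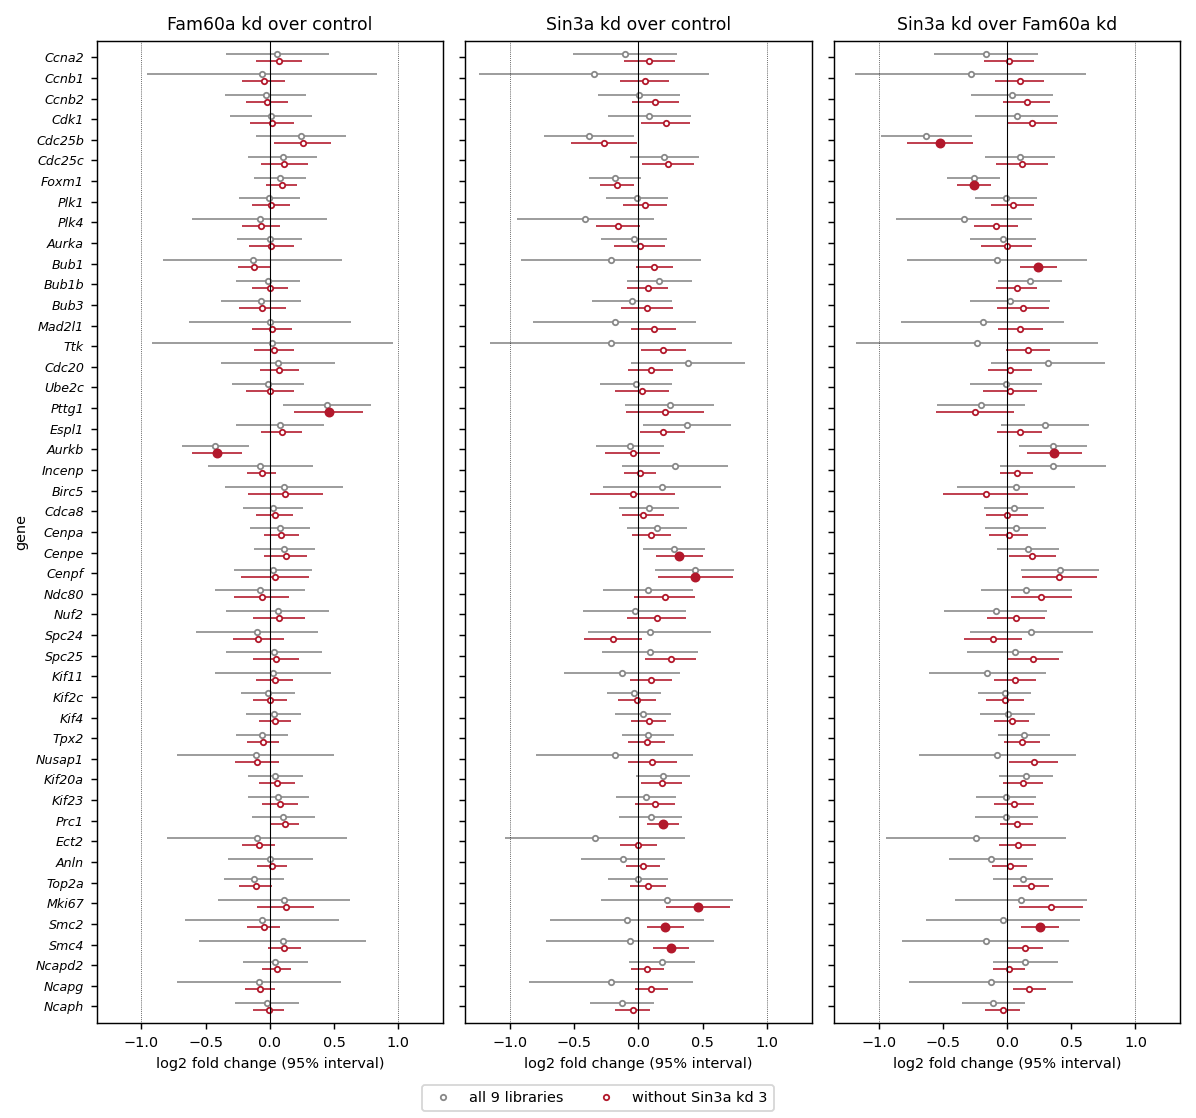
Log2 fold change with its 95% interval for each of the 47 members in the 3 comparisons, with all 9 libraries (grey) and without Sin3a knockdown replicate 3 (red), filled where the adjusted p is under 0.05 and with dotted lines at 2-fold. No grey point is filled, the red intervals are narrower, and the filled red points are those of the 11 members named in the text.

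Among the 7 genes of the Cdk1-cyclin engine, Cdc25b, the phosphatase that starts Cdk1 activation, differed most between the knockdowns. It had 129, 113 and 99.9 CPM in Fam60a knockdown, 77.8, 81.7 and 60.5 CPM in Sin3a knockdown and 104, 97.4 and 87.5 CPM in control libraries. Every Sin3a knockdown library lay below every library of both other groups, and the Fam60a knockdown libraries lay mostly above the controls with overlap. Its log2 fold change was -0.63 ± 0.16 in Sin3a over Fam60a knockdown (adjusted p = 0.0688 by edgeR) and -0.39 ± 0.16 in Sin3a knockdown over control (adjusted p = 0.157), where it was -0.27 ± 0.11 (adjusted p = 0.118) without replicate 3. On log2 fold changes, here and below, ± gives the standard error and not the SD of replicates. The call between the knockdowns was made with the replicate block (adjusted p = 0.0296 by edgeR) and without Sin3a knockdown replicate 3 (-0.52 ± 0.11, adjusted p = 0.0173), and was lost when the GC correction was added without that library (-0.30, adjusted p = 0.114). Over the alternatives its adjusted p ran from 6.44e-05 to 0.237. Its window, printed above, holds both sets of letters.

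Foxm1, the transcription factor that drives many G2/M genes, had 184, 184 and 178 CPM in Fam60a knockdown, 146, 160.4 and 149 CPM in Sin3a knockdown and 173, 174 and 170.4 CPM in control libraries. The Sin3a knockdown values lay lowest, the Fam60a knockdown values highest, and the 3 groups did not overlap. The log2 fold change was -0.26 ± 0.090 in Sin3a over Fam60a knockdown (adjusted p = 0.165 by edgeR with all libraries). Without Sin3a knockdown replicate 3 it was -0.26 ± 0.059 (adjusted p = 0.0208 by edgeR), and with the GC correction added it was -0.020 (adjusted p = 0.896), with adjusted p over the alternatives from 0.00227 to 0.896. Foxm1 shares 144 exon bases on the same strand with Tex52, so reads there may have been lost or split.

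Cdk1 itself, the kinase of mitotic entry, had 124, 108 and 125 CPM in Fam60a knockdown, 136, 138 and 101 CPM in Sin3a knockdown and 124, 110.3 and 119.9 CPM in control libraries. All 3 groups overlapped, with log2 fold changes of 0.0077 ± 0.14 in Fam60a and 0.084 ± 0.14 in Sin3a knockdown over control, the second being 0.21 ± 0.085 (adjusted p = 0.101 by edgeR) without replicate 3. Ccnb1, the cyclin B that Cdk1 binds, had 82.5, 86.6 and 79.5 CPM in Fam60a knockdown, 83.4, 95.4 and 22.3 CPM in Sin3a knockdown and 84.2, 90.6 and 84.6 CPM in control libraries. Apart from the third Sin3a knockdown library, with 55 reads, the groups overlapped, and the log2 fold change in Sin3a knockdown over control, -0.35 ± 0.40 with all libraries, was 0.047 ± 0.084 without it. The remaining cyclins and Cdc25c, the second phosphatase, had log2 fold changes from -0.034 to 0.10 in Fam60a and from -0.10 to 0.20 in Sin3a knockdown over control, or from 0.086 to 0.23 without replicate 3. Pseudogene copies of Ccnb1 and Ccnb2 are annotated, so their counts are less certain.

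None of the 3 genes grouped here as mitotic kinases (Plk1, Aurka and Plk4) was called with all libraries or without Sin3a knockdown replicate 3. The kinases Aurkb and Bub1, grouped under other roles below, were called in the fit without that library. Plk1, which acts from mitotic entry to cytokinesis, had 157, 143 and 164 CPM in Fam60a knockdown, 159, 162 and 140.2 CPM in Sin3a knockdown and 155, 148 and 162 CPM in control libraries. Its log2 fold change was -0.0031 ± 0.11 (95% interval -0.24 to 0.24) in Fam60a and -0.011 ± 0.11 (-0.25 to 0.23) in Sin3a knockdown over control. Without replicate 3 the Sin3a value was 0.051 ± 0.074 (adjusted p = 0.663 by edgeR). Leaving out that library and correcting for GC content gave Plk1 0.36 in Sin3a knockdown over control (adjusted p = 0.0246 by edgeR), with adjusted p over the alternatives from 0.0246 to 0.99.

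Aurka, the centrosome and spindle kinase, had 133, 119.8 and 129 CPM in Fam60a knockdown, 125, 131 and 117 CPM in Sin3a knockdown and 135, 114 and 133 CPM in control libraries, with full overlap of the groups and a log2 fold change in Sin3a knockdown over control of -0.035, or 0.0080 without replicate 3. Plk4, which licenses centriole duplication, had 94.1, 102 and 102 CPM in Fam60a knockdown, 95.9, 92.3 and 46.3 CPM in Sin3a knockdown and 103, 111 and 101 CPM in control libraries. All Sin3a knockdown values were below the controls, the third library furthest, and the log2 fold change of -0.41 ± 0.23 (adjusted p = 0.307 by edgeR) became -0.16 ± 0.076 (adjusted p = 0.167) without it, with adjusted p over the alternatives from 0.0387 to 0.538.

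Of the 9 genes of the spindle checkpoint, the anaphase-promoting complex and separase, Pttg1 had the largest log2 fold change in the Fam60a knockdown. Pttg1 is securin, the inhibitor of separase that is destroyed at anaphase. It had 58.2, 55.4 and 64.3 CPM in Fam60a knockdown, 47.1, 53.3 and 54.4 CPM in Sin3a knockdown and 43.3, 37.6 and 49.6 CPM in control libraries. All 3 Fam60a knockdown values exceeded all 3 controls, and also all 3 Sin3a knockdown values, which overlapped the controls. The log2 fold change in Fam60a knockdown over control was 0.45 ± 0.15 (adjusted p = 0.172 by edgeR with all libraries). Without Sin3a knockdown replicate 3 Pttg1 rose by 0.46 ± 0.12 on the log2 scale (adjusted p = 0.0311), and with the GC correction added by 0.43 (adjusted p = 0.0437). It was called in 4 of 20 alternatives, with adjusted p from 0.00059 to 0.502. Pttg1 is a member whose window, printed above, held neither CHR nor CCAAT letters. That window lies inside the gene as GENCODE M21 annotates it, so whether the bases before the gene hold them was not searched.

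Separase itself, Espl1, had 360.0, 396 and 388 CPM in Fam60a knockdown, 383, 439.5 and 587 CPM in Sin3a knockdown and 339, 371 and 372 CPM in control libraries. Every Sin3a knockdown library was above every control, the third by far. Its log2 fold change of 0.38 ± 0.15 (adjusted p = 0.153 by edgeR) was 0.19 ± 0.078 (adjusted p = 0.108) without that library and 0.50 (adjusted p = 0.00255) with the GC correction added. It was called higher in 4 of 20 alternatives, with adjusted p from 0.00255 to 0.334. Cdc20, the activator of the anaphase-promoting complex, had 159.8, 143 and 164 CPM in Fam60a knockdown, 154, 164 and 268 CPM in Sin3a knockdown and 154, 142 and 152 CPM in control libraries. The third Sin3a knockdown library was far above all others. The log2 fold change in Sin3a knockdown over control was 0.38 ± 0.20 (adjusted p = 0.261 by edgeR), 0.094 ± 0.077 (adjusted p = 0.406) without that library and 0.40 (adjusted p = 0.0199) with the GC correction added. Cdc20 was called higher in 3 of 20 alternatives, with adjusted p from 0.0161 to 0.471. The transcripts of Espl1 and Cdc20 have 56.1 and 55.6% GC, among the highest of the members.

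The checkpoint kinase Bub1 had 180.1, 171 and 166 CPM in Fam60a knockdown, 200.3, 211 and 74.3 CPM in Sin3a knockdown and 196, 179 and 192 CPM in control libraries. The third Sin3a knockdown library was far below all others and the first and second were above all 6 remaining libraries. Its log2 fold change in Sin3a over Fam60a knockdown was -0.080 ± 0.31 with all libraries and 0.24 ± 0.064 (adjusted p = 0.0347 by edgeR) without that library, the opposite sign, and 0.14 (adjusted p = 0.307) with the GC correction added. Over the alternatives its adjusted p ran from 0.0078 to 0.965.

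Bub1b, the checkpoint protein that inhibits Cdc20, had 301, 275 and 296 CPM in Fam60a knockdown, 305, 312 and 371 CPM in Sin3a knockdown and 317, 285 and 279 CPM in control libraries. Ube2c, the ubiquitin-conjugating enzyme of the anaphase-promoting complex, had 77.6, 69.4 and 79.4 CPM in Fam60a knockdown, 75.5, 79.3 and 70.3 CPM in Sin3a knockdown and 81.8, 71.0 and 75.7 CPM in control libraries. For both, the knockdown libraries overlapped the controls, with log2 fold changes from -0.020 to 0.16. Without replicate 3 the Sin3a values were 0.072 for Bub1b and 0.025 for Ube2c. Bub3, Mad2l1 and the kinase Ttk, further checkpoint genes, had log2 fold changes of -0.071, 0.0030 and 0.020 in Fam60a and -0.048, -0.19 and -0.22 in Sin3a knockdown over control. Without replicate 3 the Sin3a values had the opposite sign, 0.066, 0.12 and 0.19, and none was called in either fit.

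In the chromosomal passenger complex, which corrects kinetochore attachments and steers cytokinesis, the kinase subunit Aurkb was low in the Fam60a knockdown. It had 99.8, 100.3 and 80.8 CPM in Fam60a knockdown, 123, 120.3 and 117 CPM in Sin3a knockdown and 129, 122 and 126 CPM in control libraries. Every Fam60a knockdown library lay below every Sin3a knockdown and control library, and those 2 groups overlapped. The log2 fold change in Fam60a knockdown over control was -0.42 ± 0.12 with all libraries (adjusted p = 0.0963 by edgeR). Without Sin3a knockdown replicate 3 it was -0.41 ± 0.085 (adjusted p = 0.0124), and with the GC correction added -0.36 (adjusted p = 0.0153). It was called in 7 of 20 alternatives, with adjusted p from 0.000335 to 0.349, and was below 0 in all of them. In Sin3a over Fam60a knockdown Aurkb had a log2 fold change of 0.36 ± 0.12 (adjusted p = 0.148), and of 0.37 ± 0.10 (adjusted p = 0.0328) without that library, and it was called in 7 of 20 alternatives, with adjusted p from 0.00503 to 0.362.

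None of its 3 partners was called in the Fam60a knockdown with all libraries or without Sin3a knockdown replicate 3. Incenp, the scaffold that activates Aurkb, had 222, 212 and 213 CPM in Fam60a knockdown, 224, 234 and 375 CPM in Sin3a knockdown and 235, 222 and 226 CPM in control libraries, and the value of the third Sin3a knockdown library was the one apart. Birc5 (survivin), which brings the complex to centromeres, had 94.3, 114 and 111 CPM in Fam60a knockdown, 84.5, 108 and 146 CPM in Sin3a knockdown and 84.1, 111 and 102 CPM in control libraries, with overlap of all groups. In Fam60a knockdown over control the log2 fold changes of Incenp, Birc5 and Cdca8 (borealin) were -0.074 ± 0.18, 0.11 ± 0.20 and 0.025 ± 0.10. In Sin3a knockdown over control they were 0.28, 0.18 and 0.078 with all libraries and 0.012, -0.046 and 0.038 without replicate 3. Incenp was called higher in the Sin3a knockdown in 3 of 20 alternatives, with adjusted p from 0.0265 to 0.931.

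Of the 7 centromere and kinetochore genes, Cenpf had the highest log2 fold change in the Sin3a knockdown. Cenpf, a large kinetochore protein that peaks in G2 and mitosis, had 255, 298 and 241 CPM in Fam60a knockdown, 332, 377 and 349 CPM in Sin3a knockdown and 254, 302 and 225 CPM in control libraries. All Sin3a knockdown libraries were above all others. The log2 fold change in Sin3a knockdown over control was 0.44 ± 0.14 (adjusted p = 0.0765 by edgeR), with adjusted p = 0.0249 under the replicate block. Cenpf rose by 0.44 ± 0.13 on the log2 scale without replicate 3 (adjusted p = 0.0363) and had 0.33 with the GC correction added (adjusted p = 0.0586), with adjusted p over the alternatives from 0.000127 to 0.179. Its window, printed above, held CHR letters just after the start site and CCAAT letters before it.

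Cenpe, the kinesin that carries chromosomes to the spindle equator, had 241, 261 and 224 CPM in Fam60a knockdown, 264, 295 and 254 CPM in Sin3a knockdown and 213, 238 and 222 CPM in control libraries. The Sin3a knockdown libraries lay above the controls, and the Fam60a knockdown libraries overlapped both. In Sin3a knockdown over control its log2 fold change was 0.28 ± 0.11 (adjusted p = 0.138 by edgeR). It was 0.32 ± 0.082 (adjusted p = 0.0216) without replicate 3 and 0.20 (adjusted p = 0.0935) with the GC correction added, with adjusted p over the alternatives from 0.00102 to 0.27.

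Ndc80, the microtubule-binding subunit of the outer kinetochore, had 111, 93.7 and 91.1 CPM in Fam60a knockdown, 119, 119 and 88.2 CPM in Sin3a knockdown and 116, 99.0 and 96.4 CPM in control libraries, and the groups overlapped. Its log2 fold change in Sin3a knockdown over control was 0.075, or 0.20 without replicate 3. Its partners Nuf2, Spc24 and Spc25 had log2 fold changes of 0.060, -0.10 and 0.034 in Fam60a and -0.029, 0.087 and 0.093 in Sin3a knockdown over control. Without replicate 3 the Sin3a values were 0.14, -0.20 and 0.25, of the opposite sign for Nuf2 and Spc24. Cenpa, the centromeric histone, had 0.077 in Fam60a and 0.14 in Sin3a knockdown over control, or 0.10 without replicate 3.

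Spindle motors and assembly factors showed no called difference in the fits with all libraries or without Sin3a knockdown replicate 3. Kif11, the motor that pushes spindle poles apart, had 242, 226 and 247 CPM in Fam60a knockdown, 254, 247 and 139.7 CPM in Sin3a knockdown and 254, 225 and 223 CPM in control libraries. Tpx2, which activates Aurka on microtubules, had 271, 243 and 257 CPM in Fam60a knockdown, 275, 287 and 286 CPM in Sin3a knockdown and 278, 259 and 269 CPM in control libraries. For Tpx2 the intervals were -0.27 to 0.14 in Fam60a and -0.13 to 0.27 in Sin3a knockdown over control, among the narrowest of the members. Nusap1, a microtubule bundler, had 140.5, 129 and 129 CPM in Fam60a knockdown, 149.6, 159 and 66.6 CPM in Sin3a knockdown and 159, 139 and 132 CPM in control libraries. Kif11 and Nusap1 were low in the third Sin3a knockdown library, and their log2 fold changes in Sin3a knockdown over control, -0.13 and -0.19, were 0.10 and 0.11 without it. The remaining motors of this role, Kif2c and Kif4, had log2 fold changes between -0.033 and 0.034. Without replicate 3 the Sin3a values were -0.015 for Kif2c, 0.078 for Kif4 and 0.063 for Tpx2, and a pseudogene copy of Kif4 is annotated.

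Of the central spindle and cytokinesis genes, Prc1, the bundler of the central spindle, had 193, 187 and 184 CPM in Fam60a knockdown, 193, 205 and 161 CPM in Sin3a knockdown and 173, 175 and 177 CPM in control libraries. The Fam60a knockdown values all exceeded the controls, as did the first 2 of the Sin3a knockdown. In Sin3a knockdown over control its log2 fold change was 0.10 ± 0.11 with all libraries (adjusted p = 0.609 by edgeR), 0.19 ± 0.056 (adjusted p = 0.0375) without replicate 3 and 0.078 (adjusted p = 0.48) with the GC correction added, with adjusted p over the alternatives from 0.0132 to 0.792. Kif20a, a kinesin of the central spindle, had 245, 216 and 242 CPM in Fam60a knockdown, 253, 262 and 263 CPM in Sin3a knockdown and 237, 218 and 227 CPM in control libraries. Its Sin3a knockdown libraries, including the third, were above both other groups, with a log2 fold change over control of 0.19 ± 0.094 (adjusted p = 0.245) with all libraries and 0.18 ± 0.070 (adjusted p = 0.0904) without the third. Ect2, the activator of RhoA at the division plane, had 234, 217 and 216 CPM in Fam60a knockdown, 234, 241 and 85.7 CPM in Sin3a knockdown and 252, 228 and 235 CPM in control libraries, where the third Sin3a knockdown library alone stood far below. Its log2 fold change in Sin3a knockdown over control was -0.34 with that library and -0.0032 without it. The kinesin Kif23 and the scaffold Anln had log2 fold changes of 0.066 and 0.0043 in Fam60a and 0.058 and -0.12 in Sin3a knockdown over control, or 0.13 and 0.037 without replicate 3, where the sign of Anln turned.

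Among the chromosome structure genes, Mki67, the protein of the mitotic chromosome surface that is widely used as a proliferation marker, had 344, 402 and 350.1 CPM in Fam60a knockdown, 431, 500.3 and 249 CPM in Sin3a knockdown and 314, 385 and 316 CPM in control libraries. The first 2 Sin3a knockdown libraries were above all others and the third was below all others. Over control, the Sin3a knockdown had a log2 fold change of 0.22 ± 0.23 with all libraries (adjusted p = 0.573 by edgeR). It was 0.46 ± 0.11 (adjusted p = 0.0167) without the third library and 0.42 (adjusted p = 0.0164) with the GC correction added, with adjusted p over the alternatives from 3.73e-05 to 0.883.

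Smc2 and Smc4, the ATPase core of condensin, showed the same split. Smc2 had 265, 253 and 244 CPM in Fam60a knockdown, 302, 309 and 132 CPM in Sin3a knockdown and 283, 254 and 257 CPM in control libraries, and Smc4 had 255, 236 and 255 CPM in Fam60a knockdown, 273, 278 and 109 CPM in Sin3a knockdown and 245, 228 and 222 CPM in control libraries. For both, the first 2 Sin3a knockdown libraries were the highest of the 9 and the third the lowest. The log2 fold changes in Sin3a knockdown over control were -0.089 ± 0.27 and -0.066 ± 0.29 with all libraries, but 0.21 ± 0.065 and 0.25 ± 0.063 without that one (adjusted p = 0.0438 and adjusted p = 0.0188 by edgeR), the opposite sign. With the GC correction added they were 0.084 and 0.13 (adjusted p = 0.529 and 0.318). Over the alternatives the adjusted p ran from 0.0133 to 0.991 for Smc2 and from 0.00322 to 0.996 for Smc4. Smc2 in Sin3a over Fam60a knockdown had 0.26 ± 0.064 (adjusted p = 0.0292) without replicate 3, against -0.029 ± 0.27 with it, with adjusted p over the alternatives from 0.00518 to 0.999.

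Top2a, the topoisomerase that untangles sister chromatids, had 419, 408 and 438 CPM in Fam60a knockdown, 456, 509 and 410.3 CPM in Sin3a knockdown and 468, 456 and 455 CPM in control libraries. The Fam60a knockdown values were all below the controls, with a log2 fold change of -0.12 ± 0.10 (adjusted p = 0.716 by edgeR). In Sin3a knockdown over control it was -0.0022, or 0.072 without replicate 3. Top2a shares 122 exon bases on the same strand with Gm23451. The condensin subunits Ncapd2, Ncapg and Ncaph had log2 fold changes of 0.042, -0.087 and -0.022 in Fam60a and 0.18, -0.21 and -0.13 in Sin3a knockdown over control. Without replicate 3 the Sin3a values were 0.069, 0.10 and -0.045, with the opposite sign for Ncapg. Ncapd2 was called higher in the Sin3a knockdown in 3 of 20 alternatives, with adjusted p from 0.0176 to 0.52, and it overlaps Scarna10 by 237 bases.

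**Figure D5:**
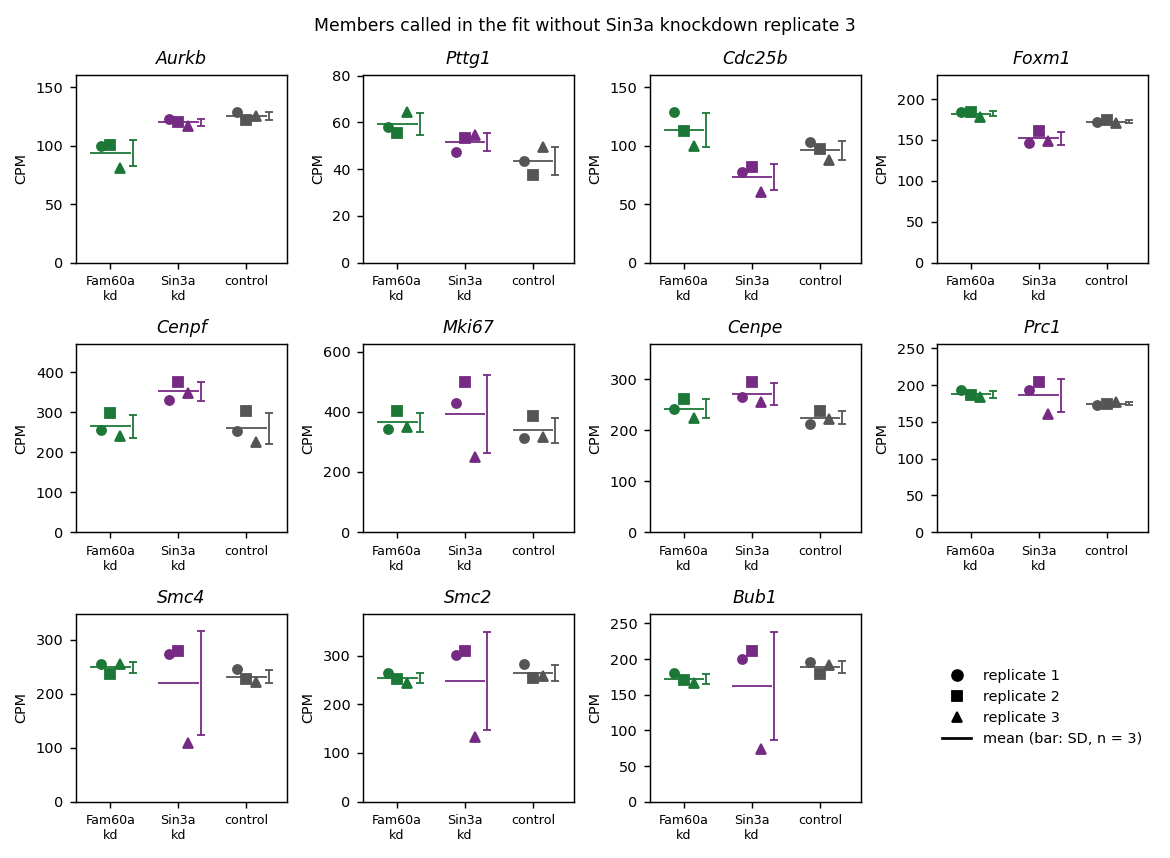
CPM of the 11 members called in any comparison in the fit without Sin3a knockdown replicate 3, by group (Fam60a knockdown, Sin3a knockdown, control; symbols mark replicates, horizontal lines the means and vertical bars the SD, n = 3). Aurkb and Pttg1 separate the Fam60a knockdown from the controls, while for Mki67, Smc4, Smc2 and Bub1 the third Sin3a knockdown library lies opposite to the first 2.

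The 6 members that rose in the Sin3a knockdown without replicate 3 were Cenpe, Cenpf, Prc1, Mki67, Smc2 and Smc4. Their transcripts have 39.7 to 46.6% GC, at or below the members' median of 46.6%, against a median of 50.2% over all tested genes. Both libraries that remain had the negative relation to GC content given above.

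Genes around the members were read in the same fits. With all libraries, 0 of 116 further mitosis genes tested changed in the Fam60a knockdown, against 2.92% of all genes called. Between the knockdowns 0 changed, against 3.06%, and in the Sin3a knockdown 1 rose, against 10.2% called in either direction. It was Fam83d, which recruits casein kinase 1 to the spindle, with 112, 112 and 158 CPM in Sin3a knockdown and 78.4, 75.5 and 74.2 CPM in control libraries and a log2 fold change of 0.74 ± 0.15 (adjusted p = 0.0179 by edgeR). Leaving out replicate 3 of the Sin3a knockdown, 8 of them rose and 1 fell in the Fam60a knockdown, 10 rose and 2 fell in the Sin3a knockdown, and 4 were higher and 2 lower in Sin3a over Fam60a knockdown. These are 7.76%, 10.3% and 5.17% of the list, against 16.9%, 24.5% and 14.7% of all genes called in that fit. In the Sin3a knockdown the smallest adjusted p belonged to the centriole gene Cenpj (log2 fold change 1.07, adjusted p = 0.0011), Fam83d (0.56, adjusted p = 0.00111) and Ckap2 (0.37, adjusted p = 0.00953) among those that rose. The 2 that fell there were the kinetochore genes Pmf1 (-0.31) and Nsl1 (-0.32). In the Fam60a knockdown Nek6 (0.29), Fam83d (0.26) and Kif18b (0.18) led those that rose, and the cohesin regulator Pds5b (-0.23) fell.

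Of the 15 MuvB and DREAM regulators, 0 changed in any of the 3 comparisons with all libraries. Over all genes 2.92%, 10.2% and 3.06% were called in these comparisons. In the fit of 8 libraries, without Sin3a knockdown replicate 3, Lin54, the DREAM subunit that binds the CHR, rose (log2 fold change 0.30, adjusted p = 0.0393 by edgeR) and the E2F partner Tfdp2 fell (-0.46, adjusted p = 0.0341) in the Fam60a knockdown. Rbl2 (p130), the pocket protein of DREAM, rose in the Sin3a knockdown (0.66, adjusted p = 0.016). Of the list, 13.3%, 6.67% and 0% were called in the 3 comparisons of that fit, against 16.9%, 24.5% and 14.7% of all genes.

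Of 38 genes of G1/S and DNA replication, 1 was called with all libraries in each comparison, against 2.92%, 10.2% and 3.06% of all genes. It was the D-type cyclin Ccnd1. It had 75.4, 70.7 and 53.9 CPM in Fam60a knockdown, 108, 107 and 101 CPM in Sin3a knockdown and 163, 143 and 156 CPM in control libraries. No library of one group overlapped another. It fell in the Fam60a knockdown (-1.21 ± 0.14, adjusted p = 0.00852 by edgeR) and in the Sin3a knockdown (-0.55 ± 0.14, adjusted p = 0.0405), and was higher in Sin3a than in Fam60a knockdown (0.66 ± 0.14, adjusted p = 0.044). In the Fam60a knockdown 34 of these 38 genes had a log2 fold change below 0, with a median of -0.102. Over all genes 7727 of 14465 were below 0, with a median of -0.021. Of the 38 genes, 16 (42.1%) were lower in every library without overlap, against 18.2% of all genes. The members beside them had 21 of 47 below 0 and a median of 0.008, and the difference between the lists was not tested. With Sin3a knockdown replicate 3 left out, 1 of the 38 rose and 4 fell in the Fam60a knockdown, 2 rose and 3 fell in the Sin3a knockdown, and 5 were higher and 0 lower in Sin3a over Fam60a knockdown. Each of these is 13.2% of the list, against 16.9%, 24.5% and 14.7% of all genes.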

How the data were processed

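Per the labels' protocols, total RNA was purified with RNeasy columns and made into stranded TruSeq libraries, read single-end. The deposited values are raw read counts per gene that the authors made; per the submitters' processing notes the tools included STAR 2.4.0j, Picard and featureCounts of Subread, and per the file headers duplicate reads had been removed. Removing duplicates limits the count a short, highly expressed gene can reach. Which genome build and gene models the counting used is not given in the sources used here. Control libraries were recognised by elimination, since their titles name neither target. The labels call the 3 libraries of a group biological replicates.

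Genes passing filterByExpr were fitted in edgeR 4.0.16 (R 4.3.3; TMM scaling; robust quasi-likelihood test; 9 libraries and 3 groups in one fit), with p-values adjusted by Benjamini-Hochberg over all tested genes and a call at an adjusted p under 0.05. The common biological coefficient of variation was 0.25. CPM values were computed from the counts with TMM-scaled library sizes. Alternatives used other scaling, no filter, DESeq2 1.42.0, limma 3.58.1 (voom with sample quality weights), each comparison's own 6 libraries, a replicate block, a loess correction for GC content (span 0.3), and each library left out in turn. The scripts were tested on simulated data with known changes. Those data had changes of 2-fold or more, less spread between libraries than here and no library skewed by GC content. The test therefore does not show how well smaller changes would be found in these libraries. Gene IDs were matched to GENCODE M21 for 32937 of 37990 genes.

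Libraries of the same replicate number deviated together from their group means (r of 0.178 to 0.622 in 9 pairs of libraries, against -0.448 to 0.113 for different numbers). The numbers were therefore taken to pair the samples in the alternatives with a replicate block. This pairing comes from the data and the labels' numbers, not from a stated batch. The main fit and that without Sin3a knockdown replicate 3 used the group only, so their p-values and intervals ignore the pairing. The members and gene lists were chosen with earlier results of these data known. Values per library are given for members called with all libraries or without Sin3a knockdown replicate 3, for the 4 highest and 4 lowest log2 fold changes per comparison, and for a fixed set of 18 members across the roles. From the other lists, up to 3 called genes per direction are named.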

Additional observations from a re-analysis of the deposited data

How the results depend on the processing

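Values here are given for the Fam60a knockdown over control, the Sin3a knockdown over control and Sin3a over Fam60a knockdown, in that order. The count of the 47 members called, 0 in each comparison, was also 0 with edgeR's relative log expression scaling, with upper-quartile scaling, without a filter on low counts and with each of the 8 libraries other than Sin3a knockdown replicate 3 left out. DESeq2 called 1, 2 and 4 members and 1181, 2507 and 1332 of all genes, where edgeR called 423, 1475 and 443. Limma-voom with sample quality weights called 3, 6 and 6 members and 2936, 4991 and 3876 genes. Each comparison's own 6 libraries gave 1, 0 and 0 members and 1827, 739 and 0 genes, and 1760 genes had an unadjusted p under 0.05 between the knockdowns there. The replicate block, which pairs libraries of the same number, gave 0, 1 and 1 members and 887, 2164 and 672 genes. GC correction gave 0, 4 and 2 members and 744, 2563 and 1086 genes, and with the replicate block 1, 4 and 4 members and 1741, 3937 and 2000 genes. Without Sin3a knockdown replicate 3, the replicate block gave 4, 16 and 12 members and 5842, 6975 and 5321 genes, and GC correction, chosen after the data were seen, gave 2, 7 and 3 members and 2445, 4017 and 2486 genes. With 1 library left out, members called ranged from 0 to 2, 0 to 6 and 0 to 5, genes called from 11 (without control replicate 1) to 2495, from 521 to 3606 and from 48 to 2166, each highest count being without Sin3a knockdown replicate 3, and the members' median log2 fold change from -0.011 to 0.065, -0.023 to 0.094 and -0.034 to 0.074. Signs turned for called members in the Sin3a knockdown over control without replicate 3 (Smc2 and Smc4), with the block added (Spc24 to -0.2101, Smc2 to 0.187 and Smc4 to 0.2504) and with GC correction added (Plk1 to 0.3592). Between the knockdowns they turned without that library (Bub1 and Smc2) and with the block added (Bub1 to 0.2389, Smc2 to 0.2348 and Ncapg to 0.1625). Over the libraries left out in turn, the log2 fold change in the Sin3a knockdown over control ran from -0.2525 to 0.208 for Smc2 and from -0.2454 to 0.253 for Smc4, and between the knockdowns from -0.2993 to 0.2442 for Bub1 and from -0.2027 to 0.2563 for Smc2. Values not called changed sign in 90, 117 and 139 of 940 member estimates per comparison. The cause of these changes was not tested. Sin3a knockdown replicate 3 had 2607872 reads, the fewest of the 9 libraries.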
